A study of Homo sapiens with 8 samples.

Results

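MIR29A, the gene of the microRNA miR-29a, was followed through erythroid induction of K562 cells, an established line from a human myeloid leukaemia whose cells can take on red cell traits. It was chosen by its own intensity, which was high on day 10. The 3 consecutive rows that carry its symbol form 1 of the 207 features of the array. The cultures were grown in serum-free StemLineII medium with 50 ng/ml interleukin 3 (IL3) and 7.5 U/ml erythropoietin (EPO), and samples were taken on days 2, 4, 6, 8 and 10 and later on days 15 and 22, with untreated cells as day 0. There was a single Cy3 array per time and no replicate, and nothing in the labels tells whether separate cultures were used. The column for day 15 equalled the mean of those for days 10 and 22 in all 621 rows (to within 0.006 units) and was left out, so 7 arrays remained. The extraction protocol names CD34 cells, whereas the other labels name K562. None of the 5 microRNAs listed as marks of CD34 progenitors was among the named features, nor were the red cell microRNAs MIR451A, MIR144, MIR486-1 and MIR16-1, so the identity of the cells could not be checked beyond the labels.

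MicroRNAs are short RNAs that pair through their seed, the bases near the 5′ end, with messenger RNAs and reduce their translation and stability. The miR-29 family is known for repressing collagens and other matrix genes, the DNA methyltransferases DNMT3A and DNMT3B, the survival factor MCL1 and the cell cycle kinase CDK6. In blood, miR-29a is known from stem and progenitor cells and from acute myeloid leukaemia, and in human B cell lymphoma the oncogenic transcription factor MYC is known to repress the miR-29 genes.

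The mature sequences of the human family are shown because a probe for miR-29a has to tell them apart. In RefSeq (GRCh38.p14) the MIR29A hairpin lies on the minus strand at chr7:130876747-130876810, overlapped by no other gene of the RefSeq table used, and 648 bases separate it from the hairpin of MIR29B1. MIR29C and MIR29B2 lie on chromosome 1 with 503 bases between their hairpins. The 3p arms follow, 5′ to 3′, with the seed (bases 2 to 8) in capitals. The first is at chr7:130876748-130876769, the second, in MIR29B1, at chr7:130877467-130877489 and the third at chr1:207801865-207801886, all on the minus strand.
miR-29a-3p: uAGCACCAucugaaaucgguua
miR-29b-3p: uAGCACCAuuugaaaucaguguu
miR-29c-3p: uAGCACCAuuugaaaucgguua
The 3 arms share the seed, and no other mature sequence among 2370 in the RefSeq table carries it. Counted from base 1 at the 5′ end of miR-29a-3p, miR-29c-3p differs from it by 1 substitution, C10U, over 22 bases. For miR-29b-3p the substitutions are C10U, G18A, U21G and A22U. The longest run that miR-29a-3p shares with miR-29c-3p is 12 bases and with miR-29b-3p 9 bases. Mature sequences were found for 65 of the 67 named genes, and among the 115 mature sequences of the others the longest run shared with miR-29a-3p was 7 bases, in miR-342-3p. The probe sequence and the arm it detects are not stated in the sources used here, so signal from miR-29c or miR-29b on these spots was not tested. MIR29A was the single member of its family among the named features, and MIR29B1, MIR29B2 and MIR29C were not analysed here.

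The symbol names the gene and could stand for either arm, so the hairpin is shown with the 5p arm and then the 3p arm in capitals.
MIR29A: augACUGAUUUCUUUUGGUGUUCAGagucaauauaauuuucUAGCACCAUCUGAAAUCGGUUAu

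The deposited values are intensities minus the average of their own array, so a value below 0 is dimmer than the average spot. On day 0 the 3 MIR29A spots read -178.19, -176.19 and -139.19 units. On day 2 they read -247.45, -279.45 and -236.45, on day 4 -288.12, -232.12 and -218.12, and on day 6 -143.3, -130.3 and -114.3. All of these early readings lay below the average of their arrays. On day 8 the spots read -17.86, -22.86 and -21.86, on day 10 243.78, 380.78 and 424.78, and on day 22 15.65, 28.65 and -7.35. Day 10 was thus the one array on which all 3 spots were brighter than the average spot.

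Because the true zero of the arrays is unknown, intensity was also taken above the dimmest spot of each array. On this scale MIR29A averaged 134 ± 22, 111 ± 22.3, 277 ± 37 and 118 ± 14.5 units over days 0, 2, 4 and 6 (SD, n = 3 spots). It averaged 113 ± 2.65, 476 ± 94.4 and 92.7 ± 18.2 units over days 8, 10 and 22 (SD, n = 3 spots). An SD between spots holds only error within an array, such as that of printing and scanning, and none of the variation among cultures or arrays. The dimmest of the 3 spots on day 10, at 370 units, was brighter than the brightest MIR29A spot of any other day, which was 305 units on day 4. The mean on day 10 was 1.72 times that on day 4, the next highest day.

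The arrays themselves differed in brightness, and the median spot lay 112, 261, 312, 131, 46, 60 and 63 units above the dimmest on days 0, 2, 4, 6, 8, 10 and 22. The mean intensity of MIR29A was 1.19, 0.425, 0.888, 0.901, 2.46, 7.93 and 1.47 times that median on the same days. It was therefore near or below the middle of the array through day 6, above it on day 8, far above it on day 10 and again nearer to it on day 22. The day 22 array also had the narrowest range, with its brightest spot 554 units above its dimmest, against 2098 on day 10. In order of brightness MIR29A held places 82, 193, 119 and 116 of 207 over days 0, 2, 4 and 6, and places 43, 9 and 46 over days 8, 10 and 22. Probes differ in affinity, so these places follow 1 probe over time and do not rank abundance.

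**Figure D1:**
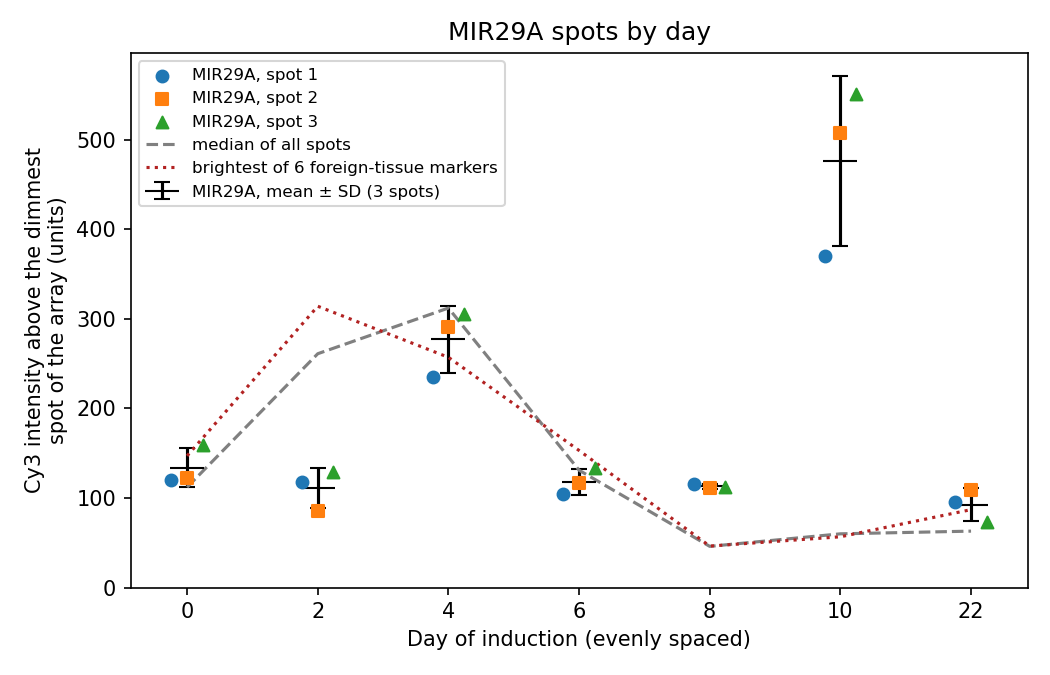
Cy3 intensity of the 3 MIR29A spots above the dimmest spot of their array (y axis, units) on each day (x axis, evenly spaced), with the mean ± SD of 3 spots. The dashed line is the median of all 621 spots and the dotted line the brightest of 6 markers of foreign tissues. The 3 spots of day 10 lie at 370, 507 and 551 units, above both lines, while those of days 0 to 6 lie near or below them.

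Whether the early signal stood out from that of microRNAs not expected in these cells was set against 6 measured markers, MIR429 of epithelium, MIR375 of pancreatic islets and MIR367, MIR371A, MIR372 and MIR373 of embryonic cells. The brightest of them measured 147, 314, 257, 153, 46.3, 56.7 and 87 units above the dimmest spot on days 0, 2, 4, 6, 8, 10 and 22. MIR29A was below the brightest marker on days 0, 2 and 6, and on day 2 it was below all 6. It exceeded all 6 on days 4, 8, 10 and 22, by 0.08, 0.78, 2.46 and 0.13 on the log2 scale after normalization. Expression of MIR29A is therefore not shown on days 0, 2 and 6, and on days 4 and 22 its margin was smaller than the SD between its own spots, which was 0.16 and 0.36.

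The normalized level was again highest on day 10. After background correction with normexp (offset of 50 units), log2 and quantile normalization over the 7 arrays, MIR29A had log2 levels of 7.32 ± 0.2, 6.23 ± 0.2, 6.92 ± 0.16 and 6.99 ± 0.1 over days 0, 2, 4 and 6 (SD, n = 3 spots). For days 8, 10 and 22 the levels were 7.86 ± 0.02, 9.45 ± 0.43 and 7.73 ± 0.36 (SD, n = 3 spots). In order of level, day 2 was lowest, followed by days 4, 6, 0, 22, 8 and 10. The neighbours in that order days 4 and 6, days 0 and 22, and days 22 and 8, differed by no more than the spread of their spots, whereas day 2 stood below day 4 and day 10 stood above day 8 by more than it. Days 6 and 0 differed by 0.33, against a combined SD of 0.22.

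The levels on day 10 are a description, because they chose the gene. On day 10 MIR29A stood at 9.45, against 7.32 on day 0, a difference of 2.13 on the log2 scale, where the SDs of the spots combine to 0.48. This was the highest such difference of all 207 features, of which 4 (1.93%) were at least 1 higher on day 10 than on day 0. The next were an unnamed feature starting at row 337, at 1.36, and MIR95, at 1.13. Set against day 8, the array nearest in time, the difference was 1.6 (combined SD 0.44), again the highest of 207, and again 4 features (1.93%) were at least 1 higher. The median difference over all features was -0.03 in both comparisons. Of 13 features with their highest level on day 10, MIR29A exceeded its next highest day by 1.6, against 0.52 for the next of them.

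**Figure D2:**
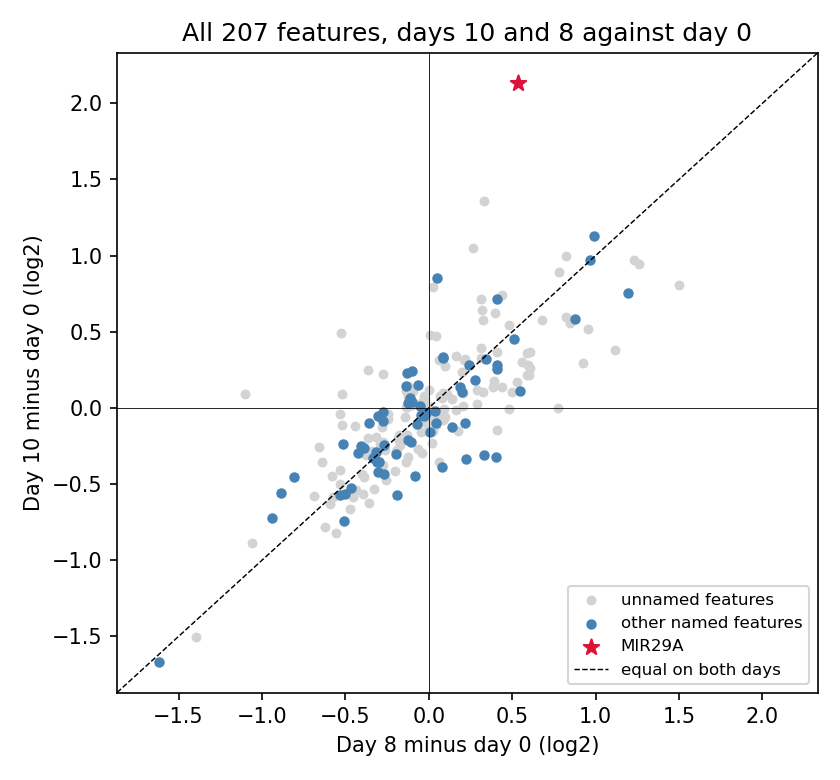
Difference from day 0 on day 10 (y axis, log2) against the difference from day 0 on day 8 (x axis, log2) for all 207 features after quantile normalization. Most features lie near the line of equal difference. MIR29A, the star, lies at 2.13 on day 10 and 0.53 on day 8, the highest point of the plot.

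The other days showed smaller differences from day 0. The difference was -1.1 for day 2, -0.4 for day 4 and -0.33 for day 6, then 0.53 for day 8 and 0.41 for day 22. On day 2 it held place 200 of 207 when features were ordered from the highest to the lowest difference from day 0. Between days 8 and 6 the difference was 0.86, the sixth highest of 207, before the step to day 10. On day 22 it stood at 7.73, against 9.45 on day 10, a difference of -1.72 (combined SD 0.57), and 27 of 207 features (13%) were at least 1 lower on day 22 than on day 10. Each of these values sets 1 array against another, without replicates.

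The features in the rows just before and after those of MIR29A did not share its day 10 signal. The unnamed feature before it, starting at row 376, had a day 10 intensity of 8 ± 7.21 units above the dimmest spot, and that after it, starting at row 382, one of 33.7 ± 5.51 (SD, n = 3 spots). They were brighter than 0% and 15.9% of features, against 95.7% for MIR29A on that array. These features are neighbours by row, and their places on the slide are not stated in the sources used here. An effect of slide position was therefore not tested.

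The 3 spots of MIR29A differed in order between days. On day 10 the third spot was 181 units brighter than the first. The third spot was also brighter on days 0, 2, 4 and 6, by 39, 11, 70 and 29 units, whereas on days 8 and 22 the third spot minus the first was -4 and -23 units. Among the 30 features with the highest mean level, days 0, 2, 4 and 6 had 23, 29, 26 and 25 in which the third spot outshone the first, and days 8, 10 and 22 had 7, 8 and 11. The arrays therefore fell into days 0 to 6 and days 8 to 22 by spot order, a split that coincides with the time course. Spot order and time cannot be told apart across the step between days 6 and 8.

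Whether MIR29A had a trend on the arrays that did not choose it was asked with days 0, 2, 4, 6, 8 and 22, normalized without day 10. Its levels were then 7.41, 6.27, 7, 7.07, 7.95 and 7.82. From day 0 to day 22 the fitted log2 change was 1.02 ± 0.55 (SE, n = 6 arrays, limma, adjusted p = 0.718 by Benjamini-Hochberg over 207 features), so a trend was not shown. In the limma test 0 of 207 features rose (0%) and 0 fell (0%), while 6 with positive and 7 with negative changes had an unadjusted p under 0.05. The fitted change of MIR29A was the ninth highest of 207, beside a median of 0.04 over all features.

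Both later arrays of this fit, days 8 and 22, had MIR29A above all 4 earlier ones. The same held for 13 of 207 features (6.28%) after quantile normalization, for 39 (18.8%) after median centring and for 44 (21.3%) after 75th percentile scaling, each with MIR29A among them. With a term for days 8 and later, the fitted change was -0.19 ± 0.89 (SE, limma, adjusted p = 0.996 by Benjamini-Hochberg), and within days 0, 2, 4 and 6 it was -0.08 ± 0.55 (SE, adjusted p = 0.959 in limma). Both of these SEs exceed their estimates, so the fits do not place the positive slope at a particular step. The change was 0.6 without day 2 and 0.8 without day 8, and its source was not tested.

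The scaling of the arrays altered the smaller differences of MIR29A and left the day 10 maximum. Without normalization its log2 levels were 7.28, 6.45, 7.89, 7.1, 7.3, 8.98 and 6.71 on days 0, 2, 4, 6, 8, 10 and 22. Day 10 remained the highest day under quantile normalization, no normalization, median centring and 75th percentile scaling. MIR29A was chosen for its day 10 value, so this maximum is a description and no test of it. The difference between days 10 and 0 was 1.7 without normalization, where the median feature was at -0.43, and 2.21 under both median centring and 75th percentile scaling. Day 22 was above day 0 by 0.41 after quantile normalization but below it, by -0.57, without normalization, where the median feature was at -0.62. Without normalization the 2 later arrays were not both above the earlier ones, and the fitted change over the 6 arrays was -0.16, beside a median of -1.05 over all features.

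**Figure D3:**
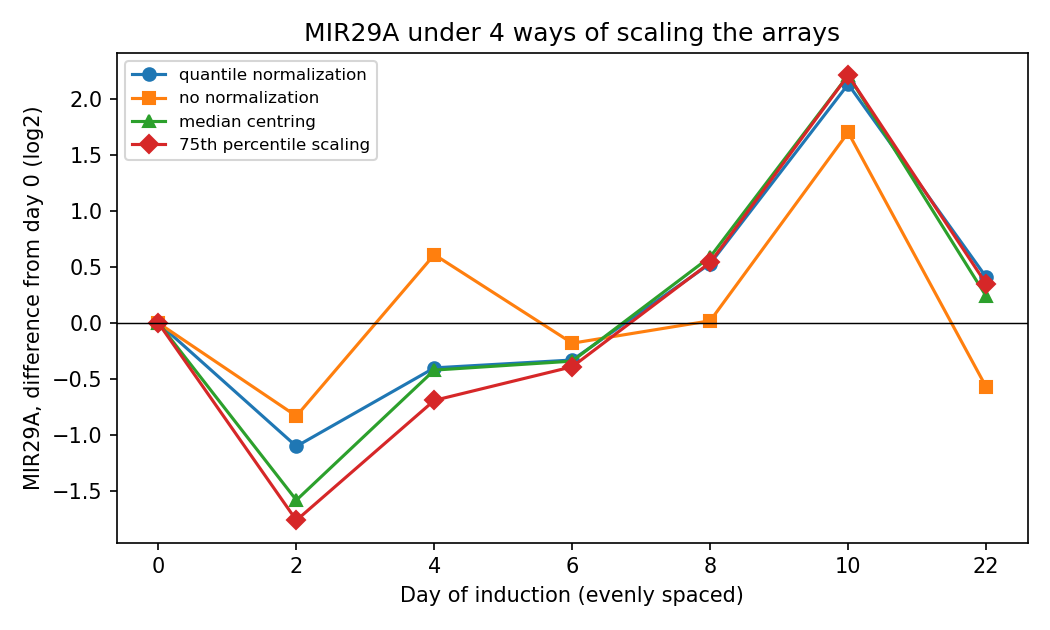
MIR29A level minus its day 0 level (y axis, log2) on each day (x axis, evenly spaced) under 4 ways of scaling the arrays. All 4 lines are highest on day 10, the day that chose the gene, between 1.7 and 2.21. Without normalization day 4 lies above day 0 and day 22 below it, opposite to the other lines.

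The named microRNAs with a course most like that of MIR29A over the 7 arrays were only loosely alike. The highest correlations of normalized levels were those of MIR423 (r = 0.63), MIR96 (r = 0.61), MIR98 of the let-7 family (r = 0.57), MIR95 (r = 0.54) and MIR339 (r = 0.53), among 66 other named features with a median r of 0.03. They are descriptions over 7 points that share 1 normalization, and without it r was -0.13, 0.01, 0.02, 0.02 and -0.05. They also include the day 10 array that chose the gene, and over the other 6 arrays r was 0.46, 0.7, 0.2, 0.28 and 0.1, which changes their order. The level of MIR423 was 7.41 on day 10, against 7.18 on day 0, and that of MIR96, a microRNA of the miR-183 cluster, was 7.39 on day 10, against 7.49 on day 0. The step of MIR29A was thus far larger than either. The lowest correlations were those of MIR326 (r = -0.83), MIR335 (r = -0.76) and MIRLET7B (r = -0.73). Without normalization these were -0.32, -0.23 and -0.32, and without day 10 they were -0.96, -0.4 and -0.65. Some of these microRNAs were dim. On day 10 MIR339, MIR326 and MIR335, at 6.75, 6.17 and 6.27, lay below the brightest foreign-tissue marker, at 6.99, and the others lay above it. Of the most alike microRNAs, MIR96 alone, at 7.49, was above the brightest marker of day 0, at 7.44. Of all features the unnamed one starting at row 337 was closest (r = 0.9, with 0.79 without normalization and 0.71 without day 10), and was singled out after its values were seen. It measured 124 ± 10.1 units above the dimmest spot on day 10, against 37.3 ± 4.04 on day 8 (SD, n = 3 spots). On days 2 and 4 it measured 133 ± 40.6 and 117 ± 66.2 units (SD, n = 3 spots), so in these units day 10 was not its brightest day. Its level on day 10 was 7.86, against 6.84 on day 8 and 6.5 on day 0. On every day but day 10 that level was below the brightest foreign-tissue marker.

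Other microRNAs known to be repressed by MYC are set beside MIR29A, which was itself chosen on day 10. The list of such genes had 9 measured members of 30, MIR29A included, of which 0 rose and 0 fell in the limma trend over 6 arrays. Of these, 6 had positive and 3 negative fitted changes, with a median of 0.13 beside 0.04 over all features. Besides MIR29A, 0 members had their highest level on day 10, where 13 of all 207 features (6.28%) had theirs, so this count does not set the list apart. Without normalization the list median was -1.3, beside -1.05 over all features. On day 10 minus day 0 the list had a median of -0.33, beside -0.03 over all features. MIRLET7G and MIRLET7E, repressors of growth genes such as HMGA2, were at -0.1 and -0.42, and MIRLET7C and MIRLET7D at -0.33 and 0.01. MIR26B, hosted by the phosphatase gene CTDSP1, was at -0.72, MIR15A, a repressor of BCL2, at -0.35 and MIR23B at -0.39. MIR22, known from red cell precursors, was at 0.58, though its intensity above the dimmest spot was 82.7 units on day 10 and 93.3 on day 0.

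The MYC-induced list, made of the MIR17_92 cluster, which promotes proliferation, had 3 measured members of 6. MIR18A, MIR19A and MIR20A had negative fitted changes of -1.87 ± 0.73, -2.72 ± 0.6 and -2.04 ± 0.83 (SE), none of which passed the limma trend test over 6 arrays (adjusted p = 0.718, 0.385 and 0.718 by Benjamini-Hochberg). The list median was -2.04, beside 0.04 over all features, and without normalization it was -4.07, beside -1.05. On day 10 minus day 0 they were at -0.21, -1.67 and -0.57, against 2.13 for MIR29A. Their own lowest levels came on day 22, at 7.27, 7.14 and 8.65, where MIR29A stood at 7.73. The day 22 array had the narrowest range of intensities. Whether the list differed from other bright features was not tested.

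Of the 7 microRNAs listed for red cell precursors, MIR15B, MIR96 and MIR22 were measured and 0 rose or fell in the limma trend, with a median of 0.1 and, without normalization, of -1.14. MIR15B had its highest quantile-normalized level on day 8, at 10.39, before the maximum of MIR29A on day 10. In units above the dimmest spot it was highest on day 4, at 2850. After quantile normalization MIR15B and MIR22 were 0.76 and 0.58 higher on day 10 than on day 0, and MIR96 differed by -0.1. In units above the dimmest spot all were lower on day 10. MIR15B was at 620 against 671, MIR22 at 82.7 against 93.3 and MIR96 at 83.3 against 156. The median spot was also lower, at 60 against 112. On day 0 the level of MIR22, 6.81, was below that of the brightest foreign-tissue marker, 7.44. The 6 markers of foreign tissues had differences between -0.56 and 0.15 from day 0 on day 10, beside a median of -0.03 over all features.

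**Figure D4:**
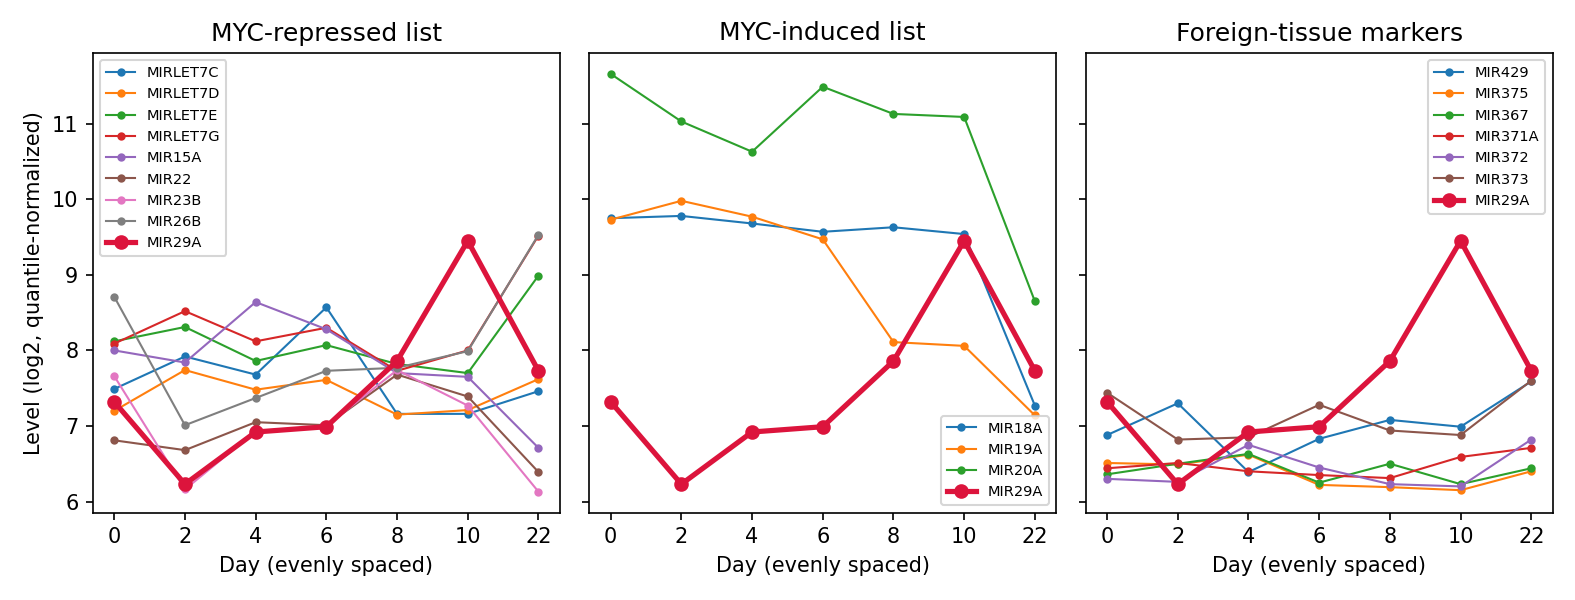
Quantile-normalized log2 level (y axis) by day (x axis, evenly spaced) of MIR29A, the thick red line in each panel, with the other measured members of the MYC-repressed list, the MYC-induced list and the markers of foreign tissues. MIR29A, chosen on day 10, has its maximum there at 9.45, and the other lines have theirs on other days. Signals of different probes do not rank their abundance.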

How the data were processed

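MicroRNA from K562 cells was labelled with Cy3 and hybridised to 1-colour arrays, per the labels. The authors deposited intensity values from which each array's mean had been subtracted, as the values show: every column averages 0. The scanner, background correction and genome build are not stated in the sources used here. On each array 67.1% to 87.8% of values were at or below 0. The 621 rows were taken in sets of 3 consecutive spots, giving 207 features, 67 with a gene symbol, 0 with several and 140 without. All symbols matched RefSeq by gene identifier and 0 changed. MicroRNA sequences and coordinates are those of RefSeq on GRCh38.p14.

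From these values limma 3.58.1 (R 4.3.3) computed normexp background correction with an offset of 50, log2 and quantile normalization, and the 3 spots were averaged. The array medians before quantile normalization ranged from 6.26 to 8.1 on the log2 scale. Offsets shrink differences of dim features. The trend used lmFit and eBayes on the order of 6 time points (4 residual degrees of freedom), given as the change from the first to the last array used, with Benjamini-Hochberg adjustment over 207 features and a threshold of 0.05. P-values measure only the scatter between these arrays, whose number limits the precision. This fit was tested on simulated data. The rule named MIR29A, the 5 named features most and the 3 least correlated with it, and measured members of the lists. The gene, the lists and the tests were chosen with earlier results of these data known. Plots were made in Python 3.11.15 (matplotlib 3.10.9).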

Additional observations from a re-analysis of the deposited data

How the results depend on the processing

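No paired analysis was possible because each time point had 1 array. The fitted change of MIR29A was positive in 17 of 20 alternatives to the fit over days 0, 2, 4, 6, 8 and 22. It was past the limma threshold in 0 of 20, with adjusted p from 0.161 to 0.996 by Benjamini-Hochberg. The 17 include the fit with day 10 added (1.85), which is a description because that array chose the gene. The fitted change was negative without normalization (-0.16), within days 0, 2, 4 and 6 (-0.08) and with a term for days 8 and later as a block (-0.19). The cause was not tested. Leaving out each array in turn gave 0.6 (without day 2) to 1.63 (without day 0), and 0 features called each time. The count of features called, 0 of 207, became 12 with time taken in days (4 up and 8 down) and 1 with day 10 included, and was 0 in the other 15 alternatives. The difference between days 10 and 0, 2.13, ranged from 1.7 to 2.44 except where readings of 0 or less took the lowest positive reading of their array (8.16), a floor that replaces all 3 readings of day 0. The difference between days 22 and 0, 0.41, was -0.57 without normalization, 2.01 with that floor, 0.83 on the second spot and -0.21 on the third, so its direction is not settled. Signal over background limits days 0, 2 and 6, where MIR29A did not exceed all markers of foreign tissues.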
